A study of Ovis aries with 12 samples.

Results

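This comparison set the libraries taken after 3.5 h of oestradiol against those taken after 1.5 h, in epithelial cells from the ampulla of the sheep (Ovis aries) oviduct. It used 6 of the 12 libraries of the series, 3 at each of the 2 times, and paired them by the number 1 to 3 in their titles. Cells were scraped from the mucosa after trypsin digestion, kept for 12 h without serum or phenol red, and given oestradiol (E2) at 10 nM. Both groups received oestradiol, and the 12 libraries of the series include no time-matched ones without it, so longer exposure and longer culture cannot be told apart. No animal, separate culture or age is given in the labels. The p-values therefore reflect only how far these samples vary, which could be technical variation. Of 18340 genes in the table, the 12025 with a mean of at least 1 FPKM over the 12 libraries were tested; FPKM is the authors' value per transcript length and library size.

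Oestradiol enters the cell and binds oestrogen receptors, transcription factors that then act at enhancers and promoters. Within the first hours a set of target genes is transcribed, and part of that response is transient because the mRNAs turn over fast and feedback inhibitors are made. CXCR4, RASL11B and TIPARP were taken as the marker genes of this interval. CXCR4 encodes the G protein-coupled receptor of the chemokine CXCL12. RASL11B encodes a small GTPase of the Ras-like family. TIPARP encodes an ADP-ribosyltransferase that is induced by, and acts back on, the aryl hydrocarbon receptor. Levels below are CPM, read counts scaled to the size of the library, and FPKM is used only where 1 gene is set against another. Coordinates are those of the deposited table, whose genome build is not given in the sources used here.

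The 6 libraries held between 49580215 counts (3.5 h, number 2) and 64304237 counts (1.5 h, number 1) in genes. On principal components of all 12 libraries, the number 3 libraries at 0, 3.5 and 5.5 h lay at 49.98 to 57.1 on the first component, which held 44.1% of the variance. The 1.5 h library numbered 3 lay at 5.26 there, and the libraries numbered 1 and 2 lay at −29.3 to −13.3. Pair 3 therefore joins 2 libraries that stand far apart: 1076 of 12025 genes (8.95%) differed more than 2-fold within it, against 199 (1.65%) in pair 1 and 208 (1.73%) in pair 2. Below, "without number 3" gives a value from the fit without the 4 libraries of that number.

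Epithelial genes were well expressed in all 6 libraries, and so were some mesenchymal ones. The stromal markers VIM and SPARC lay at 1160 to 2710 and 473 to 1820 CPM, and the smooth muscle marker TAGLN at 285 to 1750 CPM. The keratin genes KRT8 and KRT18 lay at 5530 to 8810 and 1340 to 3170 CPM, and the adhesion molecule gene EPCAM at 631 to 1100 CPM. PAX8, a transcription factor of secretory oviduct cells, lay at 187 to 293 CPM. The oviductin gene OVGP1, the main secreted product of those cells in the animal, lay at 0.573 to 1.73 CPM. Among the ciliated cell markers, FOXJ1, the regulator of motile cilia, and the dynein gene DNAI2 had 0 counts in all 6. A count of 0 allows up to 3 counts, or 0.0471 to 0.061 CPM, a limit that covers counting error only. The 3 ciliated markers that were tested, TPPP3, RSPH1 and MCIDAS, lay at 13.4 to 29.9, 10.7 to 17.5 and 0.85 to 1.79 CPM. The leukocyte gene PTPRC and the endothelial gene PECAM1 lay at 0 to 0.344 and 0 to 0.224 CPM. Other genes of the same marker lists stood higher. The immune markers CD14 and CD68 lay at 7.32 to 12.7 and 11.2 to 20.7 CPM. The endothelial markers VWF and CDH5 lay at 44.9 to 128 and 20.5 to 77.9 CPM.

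No gene passed the test between 3.5 h and 1.5 h. In edgeR with the number as a block, 0 genes were called higher and 0 lower of 12025 tested, or 0.0% in either direction, at an adjusted p under 0.05. An unadjusted p under 0.05 was reached by 616 genes (5.12%), 300 of them higher at 3.5 h (2.49%) and 316 lower (2.63%). Without the block the count at that unadjusted level was 161, again with no call. DESeq2 with the block called 3 genes higher and 4 lower, and limma called none, with 634 genes at an unadjusted p under 0.05. When the 1.5 h library of number 1 was left out, edgeR called ENSOARG00000020156 higher, and when that of number 3 was left out it called ENSOARG00000025846 lower, 1 gene in each case.

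The 3 pairs moved largely apart from each other. The log2 differences of the 12025 genes correlated at 0.05 between pairs 1 and 2, 0.01 between pairs 1 and 3 and −0.06 between pairs 2 and 3, each pair being 2 libraries of its own. At any size, 6107 genes (50.8%) lay higher at 3.5 h and 5918 (49.2%) lower. There were 1642 genes higher in 3 of 3 pairs (13.7%) and 1623 lower in 3 of 3 (13.5%). The 3 libraries of one time lay wholly above those of the other for 308 genes higher at 3.5 h (2.56%) and 301 lower (2.5%). The median log2 difference over all tested genes was 0.00319.

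**Figure D1:**
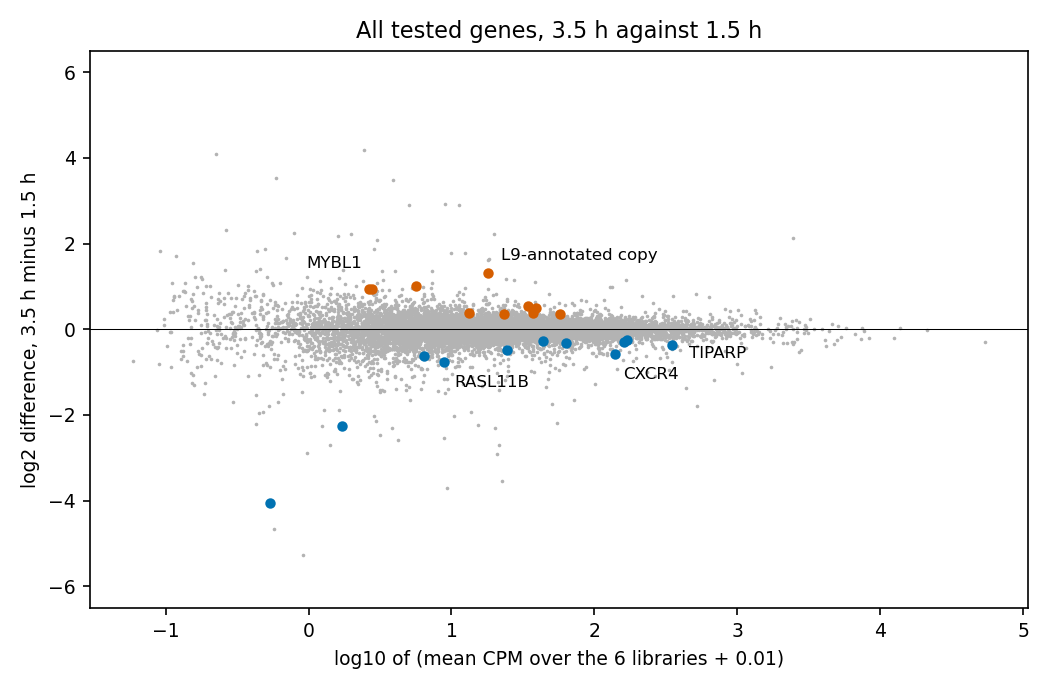
Each grey point is 1 of the 12025 tested genes, with the log10 mean CPM of the 6 libraries on the horizontal axis and the log2 difference between 3.5 h and 1.5 h on the vertical axis; 4 genes lie beyond the axis. Coloured points are the 10 genes with the smallest p in each direction (orange higher, blue lower) and TIPARP, none of which passed; CXCR4 lies at −0.59 and the copy annotated as ribosomal protein L9 at 1.32.

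CXCR4 (ENSOARG00000010462; chromosome 2, 173602065 to 173605247) had the smallest p of the genes lower at 3.5 h. It stood at 173, 167 and 161 CPM at 1.5 h in numbers 1, 2 and 3, and at 107, 132 and 98.4 CPM at 3.5 h. Every 3.5 h library lay below every 1.5 h library. The mean went from 167 ± 5.74 to 113 ± 17.3 CPM (SD, n = 3), a level 1.5-fold higher at 1.5 h, with a log2 difference of −0.59 ± 0.094 (SE; edgeR, adjusted p = 0.626, unadjusted p = 0.000104). The pairs lay at −0.69, −0.34 and −0.71. DESeq2 with the block was the 1 alternative that called it (adjusted p = 0.000131, within a range of 0.000131 to 1.0 over 19 alternatives). Its log2 difference lay between −0.71 and −0.52 in all 19, and at −0.52 without number 3.

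The 0 h and 5.5 h libraries place that difference in time. CXCR4 stood at 80.8, 95.2 and 70.6 CPM at 0 h and at 94.4, 129 and 93.5 CPM at 5.5 h. In the same fit its log2 difference was 1.04 ± 0.095 at 1.5 h against 0 h (edgeR, adjusted p = 0.00933), 0.45 ± 0.094 at 3.5 h against 0 h (adjusted p = 0.624) and −0.09 ± 0.094 at 5.5 h against 3.5 h (adjusted p = 1.0). These comparisons share the 1.5 h, 3.5 h or 0 h libraries with each other. In the authors' deposited table the log2 ratio to 0 h was 0.99 at 1.5 h (q = 0.00186) and 0.43 at 3.5 h (q = 1.0). The highest level in each of the 3 numbers was at 1.5 h.

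RASL11B (ENSOARG00000018640; chromosome 6, 68467674 to 68505844) was measured at 10.3, 10.9 and 11.9 CPM at 1.5 h and at 8.31, 6.88 and 4.65 CPM at 3.5 h. The groups did not overlap, and number 3 held both the highest 1.5 h and the lowest 3.5 h level. The means were 11 ± 0.791 and 6.61 ± 1.84 CPM (SD, n = 3), and the log2 difference was −0.76 ± 0.19 (SE; edgeR, adjusted p = 0.732). It was −0.48 without number 3. At 0 h the gene averaged 8.48 ± 0.894 CPM and at 5.5 h 7.36 ± 0.344 CPM, so the 3.5 h mean lay below both. In number 1, however, the 3.5 h level of 8.31 CPM lay above those at 0 h and 5.5 h (8.17 and 7.21 CPM). The log2 difference of 3.5 h against 0 h was −0.37 ± 0.18 (edgeR, adjusted p = 0.785).

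TIPARP (ENSOARG00000002923; chromosome 1, 229025389 to 229050958) stood at 334, 384 and 469 CPM at 1.5 h and at 296, 350 and 276 CPM at 3.5 h. It was lower in 3 of 3 pairs, but the groups overlapped, since the 3.5 h library numbered 2 lay above the 1.5 h library numbered 1. The means were 396 ± 68.3 and 307 ± 38.2 CPM (SD, n = 3), with a log2 difference of −0.37 ± 0.13 (SE; edgeR, adjusted p = 0.732). Pair 3 held most of it, at −0.77 against −0.18 and −0.14, and the difference was −0.15 without number 3. The mean was 288 ± 39.5 CPM at 0 h and 300 ± 15.9 CPM at 5.5 h. Per transcript length, TIPARP and CXCR4 stood near each other at 1.5 h, at 121 and 144 FPKM, and RASL11B far below, at 10.2 FPKM.

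**Figure D2:**
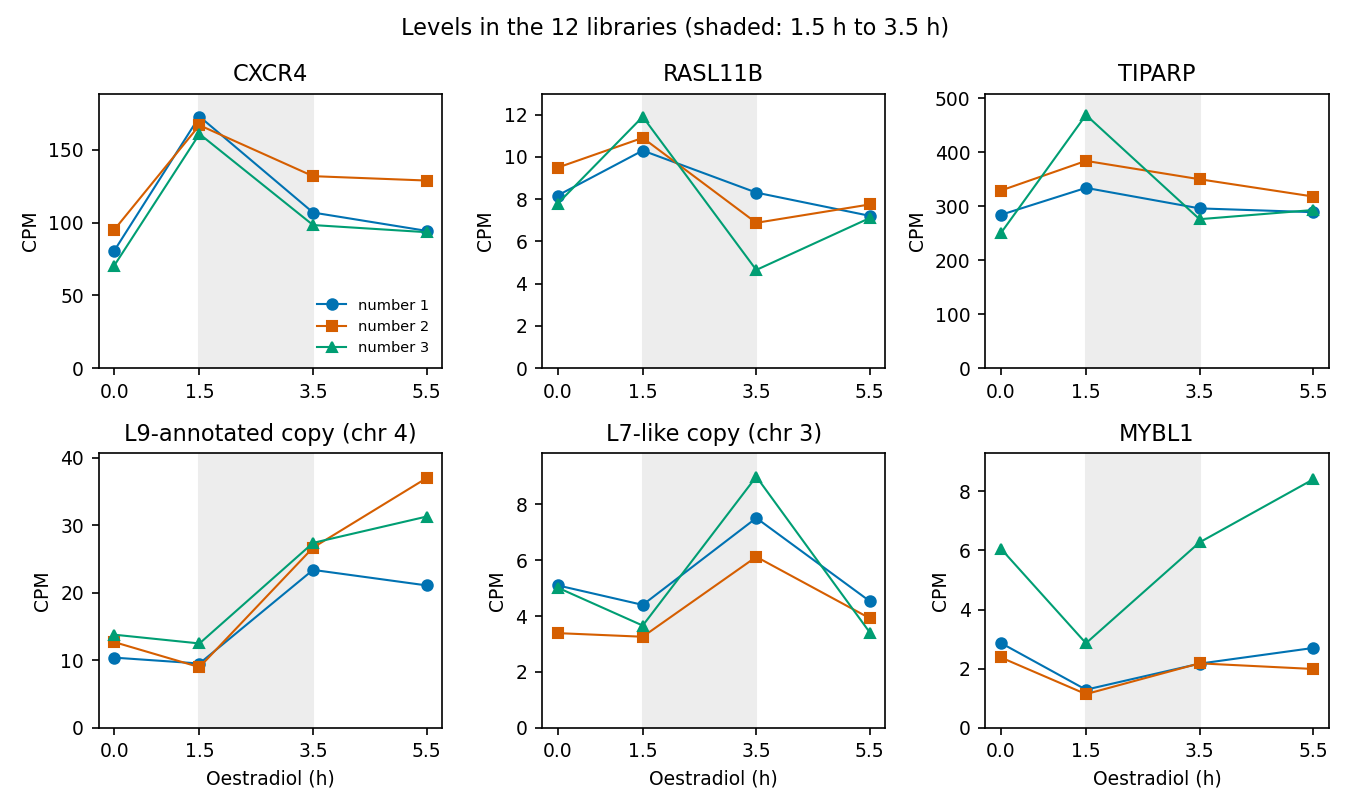
CPM (vertical axes, from 0) of 6 genes in all 12 libraries against hours of oestradiol (horizontal axes), with 1 line and marker for each number and the interval from 1.5 h to 3.5 h shaded. CXCR4 is highest at 1.5 h in each number (161 to 173 CPM), RASL11B and TIPARP are lower at 3.5 h than at 1.5 h in each pair, and the L9-annotated copy lies at 23.4 to 27.4 CPM at 3.5 h against 8.99 to 12.5 CPM at 1.5 h.

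Of the other 8 genes with the smallest p among those lower at 3.5 h, 5 are named. ARAF (chromosome X, 53844797 to 53852960), a Raf kinase of the MAPK cascade, averaged 47.3 ± 2.83 CPM at 1.5 h and 39.5 ± 4.83 at 3.5 h (log2 difference −0.27 ± 0.07). RPS27L, a paralogue of ribosomal protein S27, averaged 176 ± 12.0 and 144 ± 18.9 CPM (−0.30 ± 0.082), and MEA1 183 ± 11.4 and 154 ± 5.74 CPM (−0.25 ± 0.069). HYAL3, of the hyaluronidase family, averaged 7.66 ± 1.25 and 5.07 ± 1.34 CPM (−0.62 ± 0.16). In these 4, picked by their p in these same libraries, the groups did not overlap, as in 2.5% of all genes in that direction. TCN2, the cobalamin carrier transcobalamin, was lower in each pair (−0.31, −0.22 and −0.41) while its groups overlapped, because both number 3 libraries stood low, at 49.7 and 37.4 CPM.

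The 3 genes without a name were ENSOARG00000015758, ENSOARG00000005189 and ENSOARG00000023606. The first (chromosome 3, 128053176 to 128054817) stood at 26.5, 27.1 and 32.4 CPM at 1.5 h and 19.3, 22.0 and 20.4 CPM at 3.5 h. The second (chromosome 22, 40071946 to 40072564) averaged 2.85 ± 1.2 and 0.58 ± 0.127 CPM (−2.26 ± 0.48). DESeq2 with the block called both (adjusted p = 0.0183 and 0.00641, the lowest of ranges that reached 1.0 for each). The third, 65 bases long, had 1, 1 and 9 counts at 3.5 h against 57, 46 and 73 at 1.5 h, with 48, 1 and 1 counts at 0 h and 69, 17 and 65 at 5.5 h. None of the 8 passed in edgeR (adjusted p = 0.732 for each).

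The genes higher at 3.5 h were led by copies of ribosomal protein genes. ENSOARG00000001382 (chromosome 4, 110603406 to 110603984), annotated as 60S ribosomal protein L9, had the smallest p of all tested genes. It stood at 9.53, 8.99 and 12.5 CPM at 1.5 h and 23.4, 26.7 and 27.4 CPM at 3.5 h, with no overlap. Its log2 difference was 1.32 ± 0.15, a level 2.5-fold higher at 3.5 h (edgeR, adjusted p = 0.0874; 1.39e-11 to 0.851 over 19 alternatives). DESeq2 called it with and without the block. It lay between 1.16 and 1.42 in all 19 alternatives. The mean was 12.3 ± 1.74 CPM at 0 h and 29.8 ± 8.01 CPM at 5.5 h, and the authors' deposited table gives a log2 ratio to 0 h of 1.05 at 3.5 h (q = 0.0642) and 1.27 at 5.5 h (q = 0.0243).

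The other 4 rows annotated as L9, chosen after their values were seen, took different values. RPL9 itself (chromosome 6), a component of the large ribosomal subunit, averaged 705 ± 92.6 CPM at 1.5 h and 651 ± 82.9 CPM at 3.5 h (−0.12 ± 0.082). A second copy on chromosome 6, ENSOARG00000000241, stood at 167, 166 and 245 CPM at 1.5 h and 124, 71.2 and 171 CPM at 3.5 h, lower in 3 of 3 pairs (−0.73 ± 0.25). The copy on chromosome 9, ENSOARG00000020156, stood at 40.5, 14.3 and 14.5 CPM at 1.5 h and 35.9, 69.8 and 54.6 CPM at 3.5 h. It was higher in pairs 2 and 3 (2.29 and 1.91) and not in pair 1 (−0.18), and edgeR called it only without the 1.5 h library numbered 1 (log2 difference 2.19, adjusted p = 0.0296; 0.0296 to 1.0 over 19 alternatives). Its log2 ratio to 0 h as deposited by the authors was 1.96 at 3.5 h (q = 9.08e-06) and 2.45 at 5.5 h (q = 3.82e-07). In edgeR these differences were 1.99 ± 0.51 and 2.44 ± 0.52 (adjusted p = 0.72 and 0.512). A row annotated as an L9 pseudogene, ENSOARG00000016008 (chromosome 3), stood at 2.73, 1.70 and 2.12 CPM and then at 2.34, 2.03 and 4.51 CPM (0.35 ± 0.28, or 0.01 without number 3). Copies with like sequences can share reads, though the sequences of these rows were not compared. How reads were split between them is not given in the sources used here, so the level of each copy is uncertain. Per length, RPL9 lay at 932 FPKM at 3.5 h, ENSOARG00000000241 at 196, ENSOARG00000020156 at 85.6 and ENSOARG00000001382 at 41.3.

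A copy annotated as 60S ribosomal protein L7-like, ENSOARG00000010153 (chromosome 3, 163113269 to 163114222), followed. It stood at 4.40, 3.26 and 3.66 CPM at 1.5 h and 7.51, 6.12 and 8.99 CPM at 3.5 h, a log2 difference of 1.00 ± 0.19 (edgeR, adjusted p = 0.732; DESeq2 with the block, 0.00592; 0.00592 to 1.0 over 19 alternatives). At 5.5 h it stood at 3.41 to 4.53 CPM again. Another L7-like row, ENSOARG00000004949 (chromosome 16), stood at 1.26, 1.07 and 1.26 CPM and then at 1.41, 0.732 and 3.26 CPM (0.47 ± 0.43, or −0.15 without number 3). RPL7 itself lay at 809 ± 130 and 828 ± 200 CPM. The uncertainty of shared reads applies here as well.

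Of the other 8 genes with the smallest p among those higher at 3.5 h, MYBL1 (chromosome 9, 43637267 to 43672258), a transcription factor of the MYB family, differed by a like amount in each pair although its level did not. It stood at 1.29, 1.14 and 2.86 CPM at 1.5 h and 2.17, 2.18 and 6.27 CPM at 3.5 h, and the pairs lay at 0.74, 0.91 and 1.12 on the log2 scale (0.94 ± 0.21; edgeR, adjusted p = 0.732). Its groups overlapped because number 3 stood higher at both times. At 0 h it stood at 2.87, 2.38 and 6.06 CPM, and in each number the 1.5 h level was the lowest of the 4 times.

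SIN3A, the scaffold of a histone deacetylase complex, averaged 49.8 ± 3.89 CPM at 1.5 h and 64.6 ± 6.57 at 3.5 h (0.37 ± 0.091). APPL1, an endosomal adaptor protein, averaged 32.2 ± 2.08 and 42.5 ± 5.91 CPM (0.39 ± 0.099). CCDC112, a coiled-coil protein, averaged 20.5 ± 1.36 and 26.3 ± 2.48 CPM (0.36 ± 0.093). In these 3 genes, picked by their p too, the groups did not overlap, as in 2.56% of all genes in that direction. None of the 3 passed (edgeR, adjusted p = 0.732 for each). The unnamed genes ENSOARG00000016082, ENSOARG00000003385 and ENSOARG00000012282 lay at log2 differences of 0.50 ± 0.11, 0.54 ± 0.12 and 0.95 ± 0.24, the first with overlapping groups.

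Gene lists were then read by their counts. No member of the 29 lists passed in edgeR in either direction, and the shares below are to be read against the 50.8% of all genes higher and 49.2% lower at any size, and the 13.7% of all genes higher and 13.5% lower in 3 of 3 pairs. Examples come from the 4 members with the smallest p in each list, and values after a gene name are log2 differences at 3.5 h against 1.5 h with their SE.

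Partners of the 3 marker genes showed no common direction. Of 12 tested genes of the CXCR4 axis, 8 lay higher and 4 lower at 3.5 h, with a median log2 difference of 0.08. Beside CXCR4 itself, ITCH, the ubiquitin ligase that sorts the receptor for degradation, lay at 0.18 ± 0.097, the G protein subunit GNAI2 at −0.11 ± 0.067 and the G protein inhibitor RGS2 at 0.19 ± 0.14. Without number 3 they lay at 0.12, −0.07 and −0.01. Of 19 Ras-like small GTPases, 10 lay higher and 9 lower, with a median of 0.01. HRAS lay at −0.25 ± 0.11, RRAS at −0.40 ± 0.20 and RHEB, which activates mTOR, at 0.20 ± 0.10. These values were −0.16, −0.05 and 0.07 without number 3. Of 12 genes of the aryl hydrocarbon receptor, 5 lay higher and 7 lower, with a median of −0.02. CYP1B1, an enzyme that hydroxylates oestradiol, averaged 29.1 CPM at 1.5 h and 18.2 CPM at 3.5 h (−1.17 ± 0.59), with pairs at −0.32, −0.34 and −2.41. NQO1, a quinone reductase, lay at 0.38 ± 0.23, or 0.18 without number 3. AHR, the receptor itself, lay at −0.27 ± 0.21 in the fit and at 0.10 without number 3.

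Oestrogen target genes, a list that includes CXCR4, RASL11B and TIPARP, split evenly. Of 23 tested, 12 lay higher and 11 lower, and the median was 0.03. In 3 of 3 pairs, 3 were higher (13.0%) and 5 lower (21.7%). Those 5 include all 3 marker genes of this interval, so the lower share is not a result separate from them. RARA, the retinoic acid receptor alpha, followed those 3 genes at −0.24 ± 0.11, or −0.07 without number 3. Of 15 oestrogen receptors and partners, 10 lay higher, with a median of 0.06. ESR1, the main nuclear oestrogen receptor, averaged 8.69 CPM at 1.5 h and 11.4 CPM at 3.5 h (0.36 ± 0.22), with pairs at 0.28, 0.07 and 0.80. It lay at 0.17 without number 3 and at 0.13 without the 1.5 h library of that number alone. The coactivators NCOA1 and NCOA3 lay at 0.37 ± 0.16 and 0.15 ± 0.092, or 0.13 and 0.27 without number 3. NRIP1, a corepressor of the receptor, lay at 0.20 ± 0.10, or 0.10 without number 3.

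NF-kB and cytokine genes, which drive inflammatory responses, lay lower at 3.5 h in 18 of 24 members, and 8 were lower in 3 of 3 pairs (33.3%). The median was −0.15, with pair medians of −0.13, −0.06 and −0.22, and it stayed between −0.21 and −0.09 in all 19 alternatives. NFKB1, the p105 subunit gene, averaged 111 and 94.2 CPM without overlap between the groups (−0.23 ± 0.083; edgeR, adjusted p = 0.732). RELB lay at −0.24 ± 0.11. The cytokine genes CSF2 and IL1A lay at −0.83 ± 0.35 and −0.52 ± 0.28, or −0.12 and −0.13 without number 3. Among 23 interferon-induced genes, 14 lay lower and 4 were lower in 3 of 3 pairs (17.4%), with a median of −0.01. The other 9 lay higher, 0 of them in 3 of 3 pairs. The pair medians were 0.06, 0.05 and −0.16, and the median was 0.06 without number 3. The examples that follow are all among the lower members. PARP12, an ADP-ribosyltransferase of the same family as TIPARP, averaged 28.9 and 24.1 CPM, and IFI35 46.5 and 39.9 CPM, both without overlap. Their log2 differences were −0.26 ± 0.095 and −0.23 ± 0.09, or −0.26 and −0.15 without number 3. IFIH1, a sensor of viral RNA, lay at −0.25 ± 0.12, or −0.09 without number 3, and IRF9, of the interferon-activated transcription complex, at −0.15 ± 0.07, or −0.14.

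Members of the early response lists went both ways. Immediate early genes, whose transcription needs no prior protein synthesis, lay higher in 14 of 24 members, with a median of 0.03. IER3, a stress-induced survival gene, averaged 592 CPM at 1.5 h and 461 CPM at 3.5 h (−0.39 ± 0.14), with pairs at −0.37, −0.07 and −0.71. FOSL2 and MYC lay at 0.26 ± 0.13 and 0.23 ± 0.11, or 0.17 and 0.06 without number 3. The antiproliferative gene BTG2 lay at −0.54 ± 0.28 with pairs at −0.11, 0.03 and −1.54, and at −0.03 without number 3. MAPK feedback inhibitors lay higher in 9 of 15 members, 4 of them in 3 of 3 pairs (26.7%). Their median was 0.04, with pair medians of 0.07, 0.16 and 0.13. ERRFI1, which blocks the EGF receptor, averaged 33.8 and 55 CPM (0.57 ± 0.25), with pairs at −0.01, 0.32 and 1.54. The phosphatase DUSP1 was higher in each pair, at 0.23, 0.40 and 0.50, while DUSP2, another, had pairs at −0.26, 0.42 and −1.64. SPRED2, an inhibitor of Ras signalling, lay at 0.21 ± 0.12, or 0.12 without number 3. EGF family ligands and receptors lay higher in 8 of 9 members, but only 1 was higher in 3 of 3 pairs (11.1%). Their median was 0.11, with pair medians of −0.02, −0.01 and 0.22, and 0.01 without number 3. The ligands EREG and NRG1 lay at 0.38 ± 0.15 and −0.39 ± 0.21, or 0.12 and −0.13 without number 3. The receptors ERBB3 and EGFR lay at 0.27 ± 0.15 and 0.19 ± 0.13, or 0.07 and 0.05.

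Among the 29 lists, cholesterol synthesis genes held the largest share of members with 1 direction in every pair. Of 22 tested, 21 lay higher at 3.5 h and 13 were higher in 3 of 3 pairs (59.1%). The groups were free of overlap for 3 of the 22, where 2.56% of all tested genes were higher without overlap. The median was 0.27, with pair medians of 0.02, 0.11 and 0.63. STARD4, a carrier of cholesterol between membranes, averaged 31.2 CPM at 1.5 h and 43.5 CPM at 3.5 h (0.45 ± 0.13; edgeR, adjusted p = 0.732). MVK, mevalonate kinase, lay at 0.31 ± 0.12, with pairs at −0.04, 0.35 and 0.64. Without number 3, STARD4 lay at 0.25 and MVK at 0.16. The median was positive in all 19 alternatives (0.06 to 0.40), at 0.06 without the 1.5 h library numbered 3 and 0.08 without number 3.

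Cell cycle genes lay higher at 3.5 h, almost wholly through pair 3. Mitosis genes lay higher in 27 of 28 members with a median of 0.25, but the pair medians were −0.07, 0.01 and 0.90, and 4 members were higher in 3 of 3 pairs (14.3%). ASPM, a spindle pole protein, lay at 0.65 ± 0.34, the checkpoint kinase BUB1B at 0.46 ± 0.25, the kinetochore protein CENPF at 0.50 ± 0.28 and the midzone protein PRC1 at 0.40 ± 0.28. Without number 3 these 4 lay at 0.33, 0.22, 0.09 and 0.12. DNA replication genes lay higher in 26 of 29 members, 10 of them in 3 of 3 pairs (34.5%), with pair medians of 0.00, 0.02 and 0.61. CDC45, of the replicative helicase, and ORC6, of the origin recognition complex, lay at 0.56 ± 0.22 and 0.44 ± 0.21, or 0.29 and 0.21 without number 3. CCNE1, the cyclin of S-phase entry, averaged 5.74 and 7.78 CPM without overlap (0.44 ± 0.19). CDC6, which loads the helicase, was lower in each pair (−0.30 ± 0.14). Without number 3 the list medians were −0.05 for mitosis and 0.00 for replication.

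The remaining lists lay close to 0 or rested on pair 3. The medians were −0.11 for 18 apoptosis and growth arrest genes, 0.04 for 15 circadian clock genes and 0.08 for 21 amino acid and ER stress genes, or 0.00, −0.02 and −0.02 without number 3. They were 0.02 for 15 heat shock genes, 0.02 for 21 hypoxia and glycolysis genes, 0.00 for 24 antioxidant genes and 0.02 for 13 mitochondrially encoded genes. PMAIP1, the apoptosis inducer NOXA, was higher in each pair (0.52, 0.80 and 0.88), at 1.36 CPM on average at 1.5 h and 2.31 CPM at 3.5 h, without overlap (0.76 ± 0.25; edgeR, adjusted p = 0.732). PFKFB4, a regulator of glycolysis, was higher in each pair too (0.49 ± 0.18). GAPDH, a glycolytic enzyme often used as a reference gene, was lower in each pair, at −0.18, −0.22 and −0.27. HIF1A, the oxygen-sensitive transcription factor, and P4HA1, a collagen prolyl hydroxylase, lay at 0.20 ± 0.089 and −0.48 ± 0.23, or 0.06 and −0.06 without number 3. CCNG1, cyclin G1, lay at −0.36 ± 0.13, or −0.12 without number 3, and SESN1, a stress-induced inhibitor of mTOR, was lower in each pair, at −0.59, −0.33 and −0.34. Antimicrobial and mucosal defence genes (13 tested) had a median of 0.16, and pair medians of −0.20, −0.03 and 1.38. S100A8, an antimicrobial protein of inflamed epithelium, had pairs at 0.03, −0.03 and 2.60, and SLPI, a protease inhibitor of mucus, at 0.01, 0.12 and −1.82. The complement genes CFB and C3 lay at 0.57 ± 0.33 and 0.36 ± 0.23, or 0.15 and 0.00 without number 3.

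**Figure D3:**
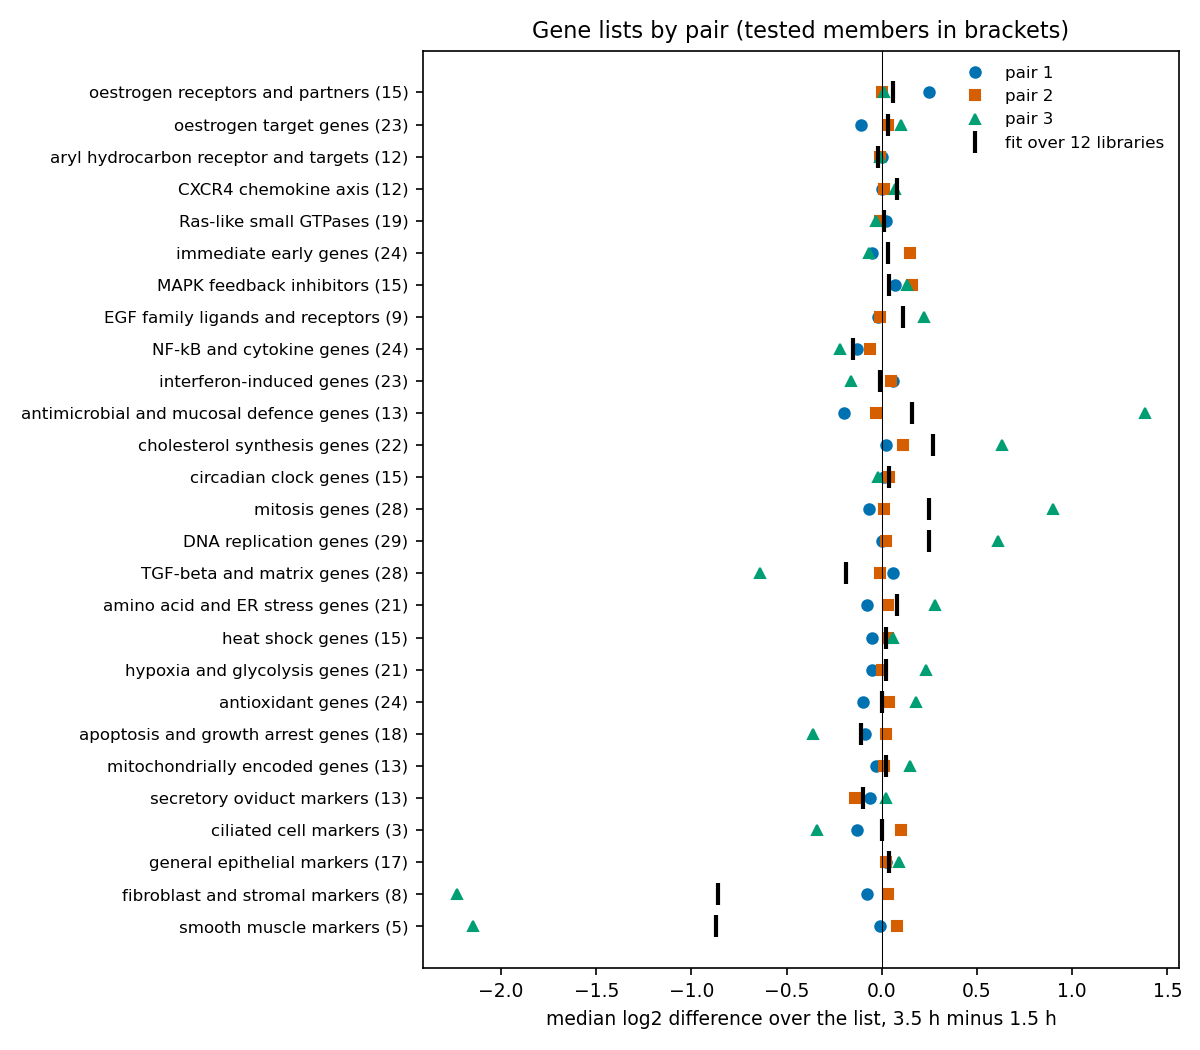
Median log2 difference between 3.5 h and 1.5 h (horizontal axis) of each gene list with at least 3 tested members (vertical axis, number of members in brackets), for each pair (coloured markers) and for the fit over 12 libraries (black bars). Pair 3 lies far from pairs 1 and 2 for smooth muscle, fibroblast, defence, mitosis and replication genes. In all 3 pairs NF-kB genes lie below 0, and cholesterol synthesis genes, MAPK feedback inhibitors and general epithelial markers above 0.

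Markers of mesenchymal cells moved with pair 3. The 16 fibroblast and stromal markers in the table, 8 of them tested, summed to 3360, 3800 and 4110 CPM at 1.5 h and 3180, 3840 and 1660 CPM at 3.5 h. The 9 smooth muscle markers, 5 of them tested, summed to 986, 1470 and 1970 CPM and to 968, 1640 and 336 CPM. The 1.5 h library numbered 3 was the highest and the 3.5 h library numbered 3 the lowest of the 6 in both lists. At 0 h and 5.5 h number 3 stood at 235 and 557 CPM for smooth muscle markers, so among the number 3 libraries the 1.5 h one stood apart. In bulk samples fewer cells of a type and less RNA per cell cannot be told apart.

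All 8 tested fibroblast markers and all 5 smooth muscle markers lay lower at 3.5 h in the fit, with medians of −0.86 and −0.87, but the pair medians were −0.08, 0.03 and −2.23, and −0.01, 0.08 and −2.15. Calponin, CNN1, stood at 32.2, 69.3 and 117 CPM at 1.5 h and 31.9, 73.2 and 3.05 CPM at 3.5 h. Smooth muscle actin, ACTA2, stood at 17.8, 32.8 and 39.4 CPM and at 16.8, 33.3 and 8.87 CPM. In numbers 1 and 2 the levels of these muscle genes at the 2 times nearly coincide. FBLN1, the matrix protein fibulin, was lower in each pair, at −0.34, −0.41 and −1.36 (−0.69 ± 0.24, or −0.37 without number 3). VIM and SPARC, vimentin and osteonectin, lay at −0.32 ± 0.15 and −0.82 ± 0.38, or −0.02 and −0.05 without number 3. Among the defining markers, DPT had 0 counts in all 6 libraries, and PDGFRB and DES reached at most 0.314 and 0.188 CPM. Without number 3 the medians were −0.02 and 0.05. TGF-beta and matrix genes lay lower in 21 of 28 members (median −0.19, or 0.02 without number 3). The fibrillar collagen genes COL5A1 and COL1A2 lay at −2.03 ± 1.0 and −0.89 ± 0.43, or −0.16 and −0.01 without number 3. INHBA, a subunit of activin, went the other way at 0.43 ± 0.20, or 0.11 without number 3. What part these marker levels have in the cell cycle, defence, sterol and TIPARP values of pair 3 was not tested.

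General epithelial markers had a median of 0.04 over 17 tested members and sums of 15800 to 20700 CPM at 1.5 h and 16400 to 20100 CPM at 3.5 h. DSP, the desmosome protein desmoplakin, lay at 0.30 ± 0.14, or 0.11 without number 3, while KRT7, a keratin of simple epithelia that the secretory list also holds, lay at −0.26 ± 0.13, or −0.03. The epithelial splicing regulators ESRP1 and ESRP2 lay at 0.21 ± 0.11 and 0.22 ± 0.14, or 0.08 and 0.00 without number 3. The 13 tested secretory markers had a median of −0.10, with pair medians of −0.06, −0.14 and 0.02. LGALS3BP, a secreted glycoprotein, lay at −0.46 ± 0.22, or −0.08 without number 3. CD9, a tetraspanin, was higher in each pair, at 0.02, 0.07 and 0.62, and SOX17, a transcription factor of the oviduct epithelium, lower in each, at −0.28, −1.04 and −0.05. Of the 16 ciliated cell markers in the table, 3 were tested, and the list summed to 39.1 to 56.4 CPM at 1.5 h and 31.2 to 56.4 CPM at 3.5 h. Immune markers summed to 23.6 to 31.8 and 22.6 to 31.3 CPM, and endothelial markers to 70.8 to 211 and 110 to 204 CPM, with 2 members tested in each list.

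**Figure D4:**
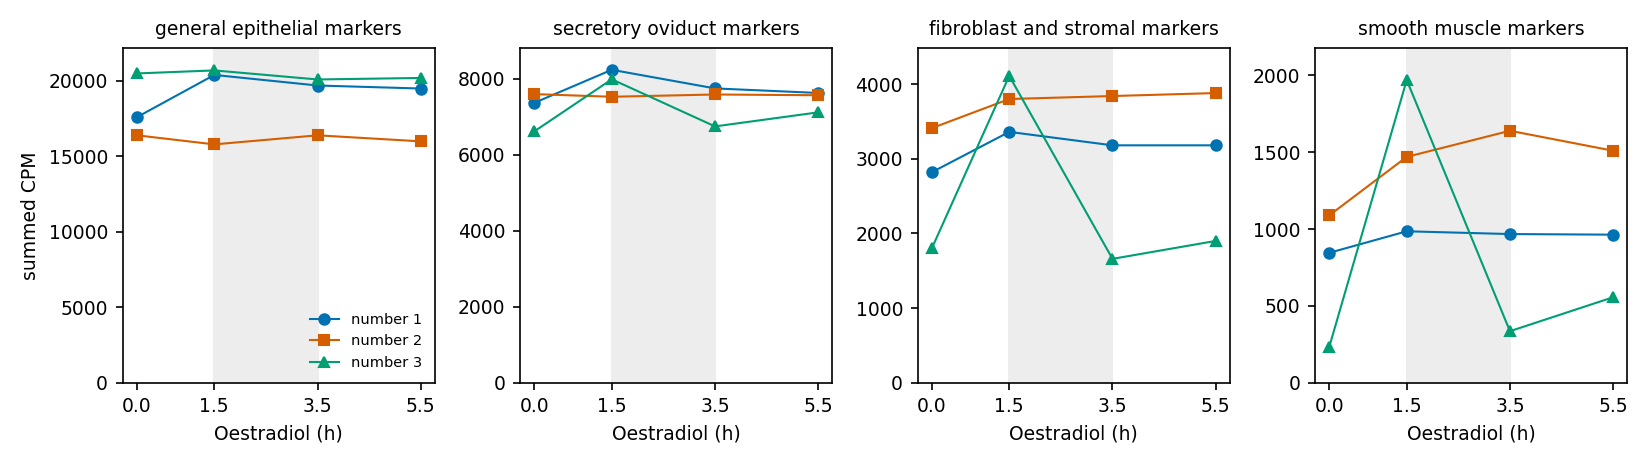
Summed CPM (vertical axes, from 0) of the epithelial, secretory, fibroblast and smooth muscle marker lists in the 12 libraries against hours of oestradiol (horizontal axes), 1 line for each number, with the interval compared shaded. Number 3 goes from 4110 to 1660 CPM for fibroblast markers and from 1970 to 336 CPM for smooth muscle markers between 1.5 h and 3.5 h, while numbers 1 and 2 stay nearly level.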

How the data were processed

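RNA sequencing of 12 libraries (4 times, 3 each) was used. The authors' deposited table of genes holds, per the file headers, counts and FPKM in each library. Log2 ratios of mean FPKM to 0 h come from the authors' deposited comparison tables, with q-values from a test not stated. The authors' deposited isoform table gives transcript lengths and FPKM. TopHat2 2.0.9 and Cufflinks are named in the submitters' processing notes, without a role. Another 42 columns of per-sample values were left out. Of 18340 genes, 13552 were named in the table and 1153 through RefSeq (assembly ARS-UI_Ramb_v3.0), used for names only. The RefSeq names were found by NCBI gene number or, where that gave none, by Ensembl identifier.

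Counts were tested with edgeR 4.0.16 (R 4.3.3): TMM scaling, quasi-likelihood F tests, a model of 4 times with the number as a block over all 12 libraries, a mean FPKM of 1 as the lower limit, and Benjamini-Hochberg adjustment over all 12025. SE is the log2 difference divided by the root of F. Pair differences were taken on log2 CPM (prior count 2). Pairing by number was set for this comparison in advance. Deviations from the group mean correlated at 0.218 to 0.705 in all 18 same-number library pairs, above the limit of 0.1, so the pairing was kept. The 36 other library pairs lay at −0.6 to 0.331. Deviations sum to 0 within each time, so these 2 ranges depend on each other. DESeq2 1.42.0, limma 3.58.1 on log2(FPKM + 1) and other settings are given in the closing section. Scripts were tested on simulated data.

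Named genes were the 10 with the smallest p in each direction, CXCR4, RASL11B, TIPARP and up to 4 members of each of 29 lists. Some genes that this rule names are not reported here. Members, lists and tests were chosen with earlier results of these data known.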

Additional observations from a re-analysis of the deposited data

How the results depend on the processing

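The counts of called genes were 0 higher and 0 lower in edgeR, and stayed at 0 in both directions without the replicate block (smallest adjusted p = 0.766), with the 6 libraries alone (0.851), with median-of-ratios or upper-quartile scaling (0.0823 and 0.114), with no filter (0.0612), with the lower limit on mean FPKM set to 5 (0.0788) and in limma at pseudocounts of 1 and 0.1 (0.0591 and 0.0612). DESeq2 with the replicate block called 3 higher and 4 lower; without the block, a setting chosen after seeing the data, it called 1 higher and 2 lower. Leaving out 1 library or 1 number gave 0 to 1 higher and 0 to 1 lower. The cause of these differences was not tested. Besides CXCR4, ENSOARG00000001382, ENSOARG00000010153, ENSOARG00000005189 and ENSOARG00000015758, DESeq2 with the block called ENSOARG00000010963 and ENSOARG00000011164, each with 0 counts in all 3 libraries of one of the times.

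The genes that took the other sign did so only where a library or number was left out, over which they ranged as follows: RPL7 from −0.05 to 0.07 (−0.02 and −0.03 without the 1.5 h or the 3.5 h library of number 3), RGS2 from −0.01 to 0.37, SLPI from −0.98 to 0.07, TPPP3 from −0.68 to 0.06, CNN1 from −3.28 to 0.04, TAGLN from −1.58 to 0.08 and SYNPO2 from −0.64 to 0.05 (each 0.01 without the 1.5 h library of number 3), VWF from −0.04 to 0.34 (−0.02 without number 3), DUSP2 from −0.91 to 0.06, AHR from −0.49 to 0.10 (0.08 without the 1.5 h library of number 3), C3 from 0.00 to 0.56, and ENSOARG00000004949 from −0.20 to 0.87 (−0.15 without number 3). The 20 genes with the smallest p kept their direction in every alternative that gave a value. TIPARP and RASL11B passed in none of 19 alternatives, and CXCR4 in 1.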

Other observations

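Some genes had many reads in single libraries and none in others. ENSOARG00000025846 (chromosome 2) had 440, 0 and 1497 counts at 1.5 h and 0 in all 3 libraries at 3.5 h, with 998 counts in 1 library at 0 h and 1927 in 1 at 5.5 h. ENSOARG00000002980 (chromosome 15) had 556, 586 and 0 counts at 1.5 h and 0 in all at 3.5 h, with 523 in 1 library at 0 h. ENSOARG00000010963 (chromosome 17) had 613 counts in the 3.5 h library numbered 1 and 0 in the other 5 of the 6 libraries compared. These genes have no name or description in the table, and were chosen after their values were seen.

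The 3.5 h library of number 1 stood apart in non-coding RNA. Genes named by an Rfam family, which are non-coding RNAs, took 1210 CPM there, against 324 to 766 CPM in the other 5. ENSOARG00000000002 on the mitochondrial chromosome stood at 534 CPM there and at 80.2 to 105 CPM in the others.

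The 2405 genes with the shortest transcripts (53 to 693 bases) had a median log2 difference of −0.02 and the 2405 with the longest (3096 to 21915 bases) one of 0.028. In pairs 1, 2 and 3 the shortest lay at −0.084, 0.038 and 0.004 and the longest at 0.054, −0.022 and 0.052, so pair 2 ran the other way. The medians were 0.007 and 0.014 without the 1.5 h library of number 1, and 0.008 and 0.013 without number 1, so the shortest took the other sign and the gap nearly closed. Of the longest, 15.3% were higher and 9.11% lower in 3 of 3 pairs, and of the shortest 11.9% and 15.6%.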
